A study of Bos taurus with 6 samples.

Results

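The SLC25 family of mitochondrial carriers was measured in whole jugular blood of 6 cows on a 1-colour Agilent bovine array. Every array probe other than a control whose gene name, or the symbol in its description, starts with SLC25A was taken, which gave 80 probes for 40 genes among 43653 probes on the array. For each gene the probe with the brightest mean signal over the 6 arrays stands for the gene, and the others are given beside it. Of these, 64 probes and 31 genes had signal well above background on 3 arrays or more and were tested, among 26823 probes tested in all. The groups were 3 animals carrying the fat-1 transgene, labelled fat-1, and 3 labelled wild type, with 1 array for each animal. The transgene comes from the worm Caenorhabditis elegans, and its enzyme makes omega-3 from omega-6 fatty acids. The study's title names the comparison of gene expression and lipid metabolism between such cattle and wild type cattle. The labels give an age of 3.5 years for fat-1 replicate 1 and of 3 years for all others. The sources used here do not give the promoter that drives the transgene, nor whether the fat-1 animals descend from 1 clone.

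The inner mitochondrial membrane lets few solutes through, and the SLC25 proteins are the main set of carriers that exchange nucleotides, phosphate, organic acids, amino acids and cofactors across it. ADP/ATP carriers export the ATP made by respiration, the carnitine/acylcarnitine carrier brings in long-chain fatty acids for oxidation, and the mitoferrins bring in iron for haem and iron-sulphur clusters. In blood the mitochondria sit in leukocytes, platelets and immature red cells, since mature red cells of mammals have lost theirs. Less RNA of a gene per cell and fewer cells of the type that expresses it cannot be told apart in such samples.

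Levels are given as log2 intensity relative to the 75th percentile of intensity on the same array, so 0 is that percentile and a difference of 1 is a doubling. The 75th percentile was 611 to 1065 intensity units, 58.4 to 63.4% of probes were well above background, and of the 80 SLC25A probes 62 to 64 were so on each array. Arrays correlated at 0.95 to 0.98 with each other. All fat-1 arrays lay on 1 slide and had 1 scan, and all wild type arrays lay on another slide with another scan, so slide, scan and genotype cannot be told apart in any difference below. Nothing in the labels says more of how the animals relate to each other. The limma p-values rest on the spread between animals within each group, with each probe's variance drawn toward that of all probes kept.

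None of the 31 SLC25A genes passed an adjusted p of 0.05 in the limma fit over all probes, in which 46 of 26823 probes did (0.171%). The adjusted p of the 31 genes lay between 0.335 and 0.972. At an unadjusted p under 0.05 there were 4 genes, which is 12.9% of the members beside 12.8% of all probes. Of these 1 was higher in fat-1 blood (6.15% of all probes) and 3 were lower (6.68%). The higher one was SLC25A24, an ATP-Mg/phosphate carrier, and the lower ones were SLC25A20, the carnitine/acylcarnitine carrier, SLC25A22, a glutamate carrier, and SLC25A30, an uncoupling-protein-like carrier. In this fit the share of members was close to that of all probes. The count was 0 when fat-1 replicate 2 was left out, where 7.56% of all probes had such a p, and 0 when wild type replicate 1 was, where 8.49% had. It was 1 (3.23%) when fat-1 replicate 3 was left out, beside 12.4% of all probes. Over the 6 fits that each left out 1 animal, SLC25A20, SLC25A24 and SLC25A30 each had an unadjusted p under 0.05 in 2, and SLC25A22 in 3.

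Differences, fat-1 minus wild type, ran from -0.64 for SLC25A22 to 1.01 for SLC25A46, and their median was -0.16. The probe of SLC25A46 was dim, and the fat-1 group alone would have kept it. Over all probes the median was -0.06, and over the brightest probe of each of 10912 named genes it was -0.08. The difference was below 0 for 19 of the 31 genes (61.3%), against 55.4% of all probes. The median standard error was 0.24. The 95% interval of the difference lay within a 2-fold change in both directions for 23 genes (74.2%), beside 64.5% of the brightest probes of named genes, and for the other 8 it reached past a 2-fold change. Among those 8, the intervals of SLC25A22 and SLC25A24 did not include 0. All 3 animals of one group lay outside the range of the other for 6 genes (19.4%, against 19.6% of all probes): SLC25A5, SLC25A11, SLC25A12, SLC25A20, SLC25A22 and SLC25A30. In each of the 6 the fat-1 animals were the lower ones, as in 12.7% of all probes, and no gene had them all higher, as 6.92% of all probes did. Leaving out fat-1 replicate 1 raised the count to 10 and leaving out wild type replicate 3 to 16, when 28.9% and 47.6% of all probes did not overlap.

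Array weights, which let arrays with a tighter fit count for more, changed these calls. Weights from limma's default estimate put 8086 probes (30.1% of all) and 7 of the 31 SLC25A genes (22.6%) past an adjusted p of 0.05. SLC25A16 and SLC25A24 were higher in fat-1 blood there, and SLC25A12, SLC25A20, SLC25A22, SLC25A25 and SLC25A30 were lower. That estimate stopped before it converged and gave wild type replicate 1 a weight of 239, against 0.146 to 0.632 for the other 5 arrays. A gene-by-gene estimate, added after those values were seen, gave wild type replicate 1 a weight of 5.26 and passed 1054 probes (3.93%) and no SLC25A gene.

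**Figure D1:**
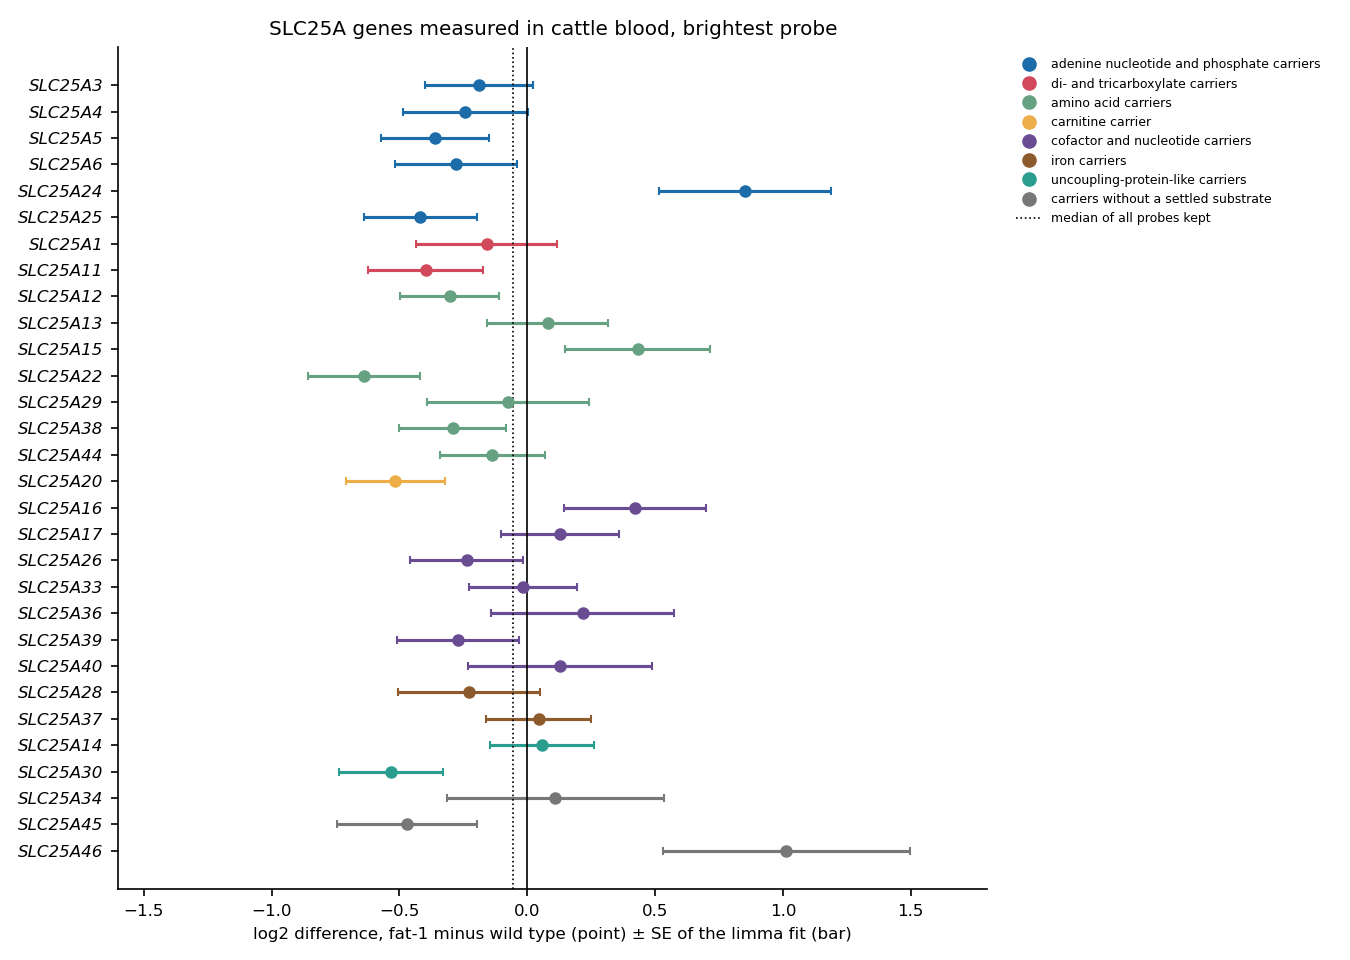
Log2 difference, fat-1 minus wild type, of the brightest probe of 30 of the 31 SLC25A genes measured, ordered and coloured by carrier group. Points are differences and bars are the standard error of the limma fit over 3 and 3 animals; the dotted line is the median of all probes, -0.06. SLC25A24 and SLC25A46 lie farthest to the right and SLC25A22 farthest to the left; the probe of SLC25A46 was dim, and the fat-1 group alone would have kept it.

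The carriers of adenine nucleotides and phosphate were 6 of the genes measured, with a median difference of -0.26 and 5 differences below 0. The ADP/ATP carriers gave -0.24 ± 0.24 (SE) for SLC25A4, -0.36 ± 0.21 for SLC25A5 and -0.28 ± 0.24 for SLC25A6, and the phosphate carrier SLC25A3 gave -0.19 ± 0.21. Every one of the 14 probes of these 4 genes had a difference below 0, from -0.54 to -0.11, as 55.4% of all probes did. SLC25A5 was at 3.56, 3.28 and 3.71 in the fat-1 animals and at 3.87, 4.0 and 3.78 in the wild type animals. The fat-1 animals were all below the wild type ones, by a small margin, and limma gave an unadjusted p of 0.126. SLC25A31, an ADP/ATP carrier known from germ cells, was well above background on none of the 6 arrays.

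The ADP/ATP carriers are close relatives of each other, so probes are shown to let their likeness be judged. In the third brightest probe of SLC25A5 (chr12:24392208-24392267, Btau_3.1, plus strand) and the second of SLC25A6 (no position in the files), 36 of 48 aligned bases are the same (75%), and these are in capitals. The longest run they share is 8 bases.
SLC25A5: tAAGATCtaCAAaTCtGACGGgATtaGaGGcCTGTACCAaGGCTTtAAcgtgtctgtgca
SLC25A6: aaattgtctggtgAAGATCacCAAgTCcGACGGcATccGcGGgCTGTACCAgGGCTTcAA
These probes gave -0.48 ± 0.25 and -0.54 ± 0.27. The brightest probe of SLC25A4 (chr27:16807843-16807902, plus strand) and the only probe of SLC25A31 (chr17:31724005-31724064, minus strand) share 30 of 42 aligned bases (71.4%), again in capitals.
SLC25A4: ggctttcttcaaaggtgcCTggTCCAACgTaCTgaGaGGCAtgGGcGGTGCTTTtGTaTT
SLC25A31: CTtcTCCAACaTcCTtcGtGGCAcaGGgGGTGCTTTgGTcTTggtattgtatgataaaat
The SLC25A31 probe was well above background on none of the 6 arrays, on all of which the SLC25A4 probe was. Some probes of a gene are not independent: 2 of SLC25A5 share 56 bases and 2 of SLC25A6 share 45. One SLC25A6 probe is placed by the files at chr27:16805934-16805993, beside the SLC25A4 probes, so which of these genes it reads is uncertain.

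The measured ATP-Mg/phosphate carriers, which change the adenine nucleotide content of the mitochondrion, stood on opposite sides of 0. SLC25A24 was at -0.39, 0.22 and -0.13 in fat-1 replicates 1 to 3 and at -1.03, -1.54 and -0.28 in wild type replicates 1 to 3. Fat-1 replicate 1 lay below wild type replicate 3, so the groups overlapped. The difference was 0.85 ± 0.34, which is 1.8-fold, with an unadjusted p of 0.035 and an adjusted p of 0.372 in limma. With wild type replicate 2 left out it was 0.56 (unadjusted limma p of 0.111), and leaving out replicate 3 of that group gave 1.19 (0.0037). Of its 4 probes, 3 were kept and gave 0.85, 1.01 and 0.74, and limma gave the second an unadjusted p of 0.032. The third was well above background in 3 fat-1 animals and 1 wild type animal, so the fat-1 group alone would have kept it, and its p is not given. Probe 4 was so in 2 fat-1 animals and no wild type animal and was not tested. The first 30 bases of the brightest probe (chr3:37819558-37819617, plus strand) are followed here by the second, which has the lowest coordinates of the 4 (chr3:37751256-37751315), and by probe 4, whose ends lie 6136 bases apart in the genome (chr3:37792604-37798739), so that it crosses an exon junction.
SLC25A24 brightest, start: gaaaagagcccagagtcaagaatagtttat
SLC25A24 second: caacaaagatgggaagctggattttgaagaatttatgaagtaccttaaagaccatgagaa
SLC25A24 probe 4: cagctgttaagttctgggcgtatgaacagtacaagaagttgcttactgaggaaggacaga
The positions of the 4 probes do not overlap. SLC25A25, the related carrier, gave -0.42 ± 0.22 with its brightest probe and -0.65 ± 0.28 with its other probe (unadjusted limma p of 0.092 and 0.043). SLC25A41, the third of the kind, was well above background on none of the 6 arrays.

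**Figure D2:**
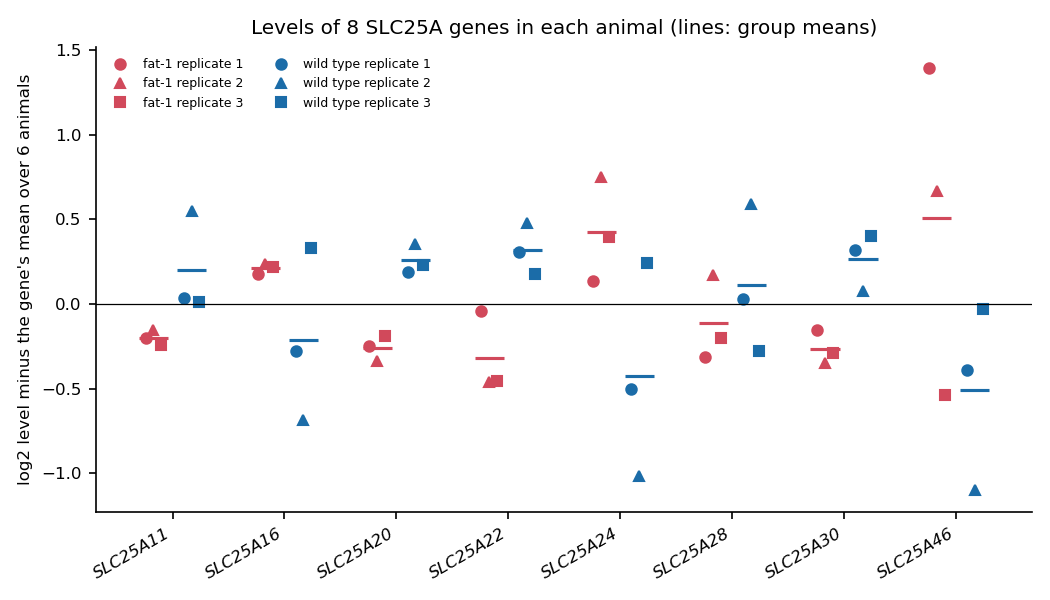
Level of 8 SLC25A genes in each animal, as log2 level minus the gene's mean over the 6 animals, with lines at group means. Fat-1 animals are red and wild type animals blue, and the 3 symbols are replicates 1 to 3; SLC25A11, SLC25A20, SLC25A22 and SLC25A30 show no overlap of the groups, and SLC25A24 and SLC25A46 show the widest spread between animals.

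SLC25A20 carries acylcarnitines into the mitochondrion in exchange for carnitine, the step that follows CPT1 in fatty acid oxidation, and it is the member closest to the study's subject of lipid metabolism. It was at 2.47, 2.39 and 2.53 in the fat-1 animals and at 2.91, 3.08 and 2.95 in the wild type animals. The groups did not overlap, and the animals of each lay close together, with an SD of 0.07 in fat-1 and 0.09 in wild type. The difference was -0.52 ± 0.19, or 1.43-fold higher in wild type, with an unadjusted p of 0.027 and an adjusted p of 0.357 in limma. The SE was larger than either SD, as limma draws each probe's variance toward that of all probes kept. Leaving out each animal in turn gave -0.55 to -0.47. The gene has 1 probe, at chr22:52009873-52009932 on the plus strand, which starts as follows.
SLC25A20, start: gtaggaagactctttttgcacactcttttc
Of the other genes of the carnitine shuttle, 7 of 7 were measured, with a median of -0.06, and none passed the adjusted threshold. CPT1B, which makes acylcarnitine at the outer membrane, gave -0.91 ± 0.26 (unadjusted limma p of 0.0080, adjusted 0.270). CROT, a carnitine acyltransferase of peroxisomes, gave 0.55 ± 0.25. The genes of this shuttle therefore lay on both sides of 0.

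Among the amino acid carriers 7 genes were measured, with a median of -0.14 and 5 below 0. SLC25A22 brings glutamate into the mitochondrion with a proton. It was at -0.89, -1.31 and -1.30 in the fat-1 animals and at -0.54, -0.37 and -0.67 in the wild type animals. The groups did not overlap, and fat-1 replicate 1 lay nearest to the wild type animals. The difference was -0.64 ± 0.22, or 1.56-fold higher in wild type, with an unadjusted p of 0.019 and an adjusted p of 0.335 in limma, the smallest of the family. Its 1 probe has no position in the files and starts as follows.
SLC25A22, start: ttttttcttttgaagagttttaagaagttg
The aspartate/glutamate carriers of the malate-aspartate shuttle gave -0.30 ± 0.19 for SLC25A12, whose groups did not overlap, and 0.08 ± 0.24 for SLC25A13. SLC25A38, which supplies glycine for haem synthesis, gave -0.29 ± 0.21, with 0.03 for its other probe. The branched-chain amino acid carrier SLC25A44 gave -0.14 ± 0.21, and SLC25A29, a carrier of basic amino acids, gave -0.07 ± 0.32. The ornithine carrier SLC25A15 of the urea cycle gave 0.43 ± 0.28 with its brightest probe and -0.70 ± 0.69 with the other, which was well above background in 1 fat-1 and 2 wild type animals. Its direction therefore depended on the probe. SLC25A2, the other ornithine carrier, was well above background on none of the 6 arrays.

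Of the di- and tricarboxylate carriers, SLC25A11, which exchanges oxoglutarate for malate, was at 3.14, 3.19 and 3.1 in the fat-1 animals and at 3.38, 3.89 and 3.35 in the wild type animals. The groups did not overlap, and wild type replicate 2 stood above the other 5 animals. The difference was -0.40 ± 0.22 with 1 probe and -0.38 ± 0.23 with the other, at unadjusted limma p of 0.114 and 0.128. Without wild type replicate 2 the first was -0.22. SLC25A1, which exports citrate for fatty acid synthesis, gave -0.16 ± 0.27 and -0.22 ± 0.30 with its 2 probes. SLC25A21, an oxodicarboxylate carrier, was well above background on none of the 6 arrays. The 12 partner enzymes of the malate-aspartate and citrate shuttles had a median of -0.11, and none had an unadjusted p under 0.05. Malic enzyme ME1 gave 0.70 ± 0.38, with all fat-1 animals above the wild type animals.

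The carriers of cofactors and nucleotides were the largest group measured, 8 genes with a median of 0.09, of which 3 were below 0. None had an unadjusted p under 0.05. SLC25A16, a carrier linked to coenzyme A, was at 1.1, 1.16 and 1.14 in the fat-1 animals and at 0.65, 0.24 and 1.26 in the wild type animals. The fat-1 animals lay close together and wild type replicate 3 lay above them. The difference was 0.42 ± 0.28 (unadjusted limma p of 0.168). Leaving out wild type replicate 2 gave 0.18 and leaving out replicate 3 of the group gave 0.69 (unadjusted limma p of 0.467 and 0.018). The glutathione carriers SLC25A39 and SLC25A40 gave -0.27 ± 0.24 and 0.13 ± 0.36. All 5 probes of SLC25A39, which read 1 gene in the same animals, were below 0, from -0.56 to -0.27, as were 55.4% of all probes. In 3 of the 5, though not the brightest, all fat-1 animals lay below the wild type animals, as in 12.7% of all probes. SLC25A26, which imports S-adenosylmethionine, gave -0.24 ± 0.22, and its 3 probes ran from -0.25 to -0.16. SLC25A17, a peroxisomal cofactor carrier, gave 0.13 ± 0.23. The pyrimidine nucleotide carriers SLC25A33 and SLC25A36 gave -0.02 ± 0.21 and 0.22 ± 0.36. The folate or FAD carrier SLC25A32 was well above background on none of the 6 arrays, and SLC25A42, a coenzyme A carrier, was so in 1 wild type animal. The NAD carrier SLC25A51 stands in the files under its older name MCART1, so the rule for members left it out, and its 3 probes gave 0.37 ± 0.25, 0.47 ± 0.21 and 0.64 ± 0.25 (unadjusted limma p of 0.170, 0.055 and 0.029). The dimmer 2 had all fat-1 animals above the wild type animals, as 6.92% of all probes did.

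The mitoferrins supply iron, SLC25A37 mainly in red cell precursors and SLC25A28 more widely. SLC25A28 was at -0.08, 0.40 and 0.03 in the fat-1 animals and at 0.26, 0.82 and -0.04 in the wild type animals. The groups overlapped, the difference was -0.23 ± 0.28, and its other probe gave -0.26 ± 0.22. Without wild type replicate 2 the difference of SLC25A28 was 0.01. SLC25A37 was at 2.93, 2.68 and 2.51 against 2.71, 2.63 and 2.64, a difference of 0.04 ± 0.21 with a 95% interval from -0.43 to 0.52. Its 5 probes ran from -0.06 to 0.49, and the 2 of them at chr8:74257735-74257794 and chr8:74257432-74257491 match, through their accession, another RefSeq gene of the same region, LOC523756, for which SLC25A37 is a synonym. These 2 gave 0.49 ± 0.27 and 0.06 ± 0.45.

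Marker genes of red cells are set beside these carriers. Of 15 erythroid marker genes on the array 11 were measured, with a median difference of 0.94, 7 above 0 and 4 below. Their summed level, in multiples of the 75th percentile, ran from 534 to 1043 in fat-1 animals and from 99.5 to 1243 in wild type animals. The haemoglobin gene HBA was at 8.38, 9.09 and 8.41 in the fat-1 animals and at 5.17, 9.38 and 6.16 in the wild type animals. EPB42, a red cell membrane protein, gave 1.35 ± 0.39. SLC4A1, the red cell anion exchanger, was well above background in the 3 wild type animals only, at least 1.46-fold higher than in fat-1, and it was kept through that group alone. Wild type replicate 2, high in haemoglobin, was the highest of the 6 animals for SLC25A28, SLC25A38 and SLC25A39, as for 17 of the 31 genes. For SLC25A37 it was at 2.63, with only fat-1 replicate 3 below it. Of 20 measured partners in iron and haem use, with a median of -0.05, 2 had an unadjusted limma p under 0.05, beside 12.8% of all probes. ALAD, an early enzyme of haem synthesis, gave -1.12 ± 0.31 and UROS, a later one, gave 0.70 ± 0.25 (adjusted limma p of 0.248 and 0.347). Red cell content as a part of any carrier's difference was not tested.

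**Figure D3:**
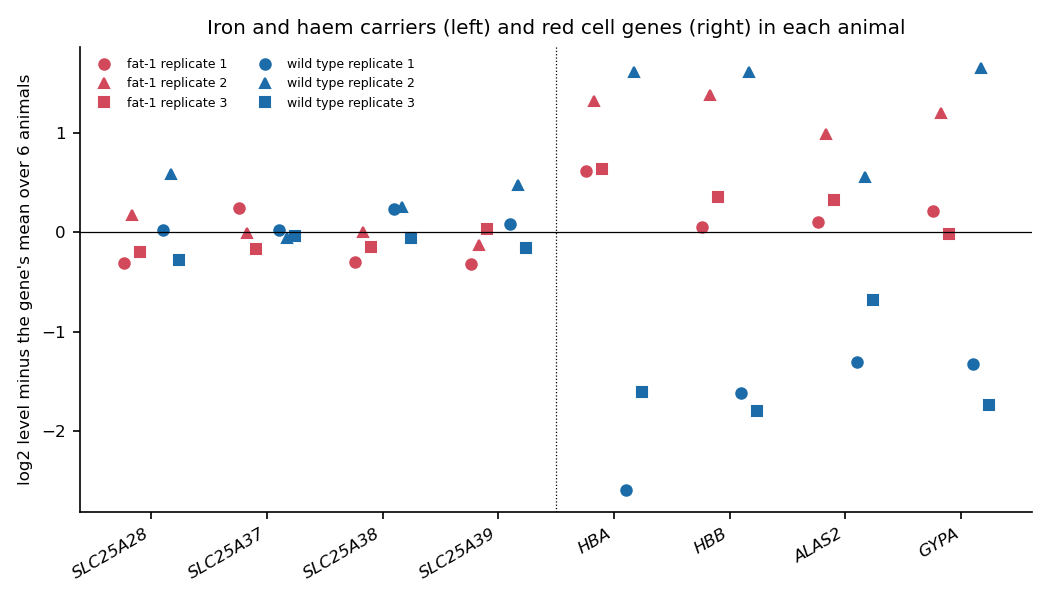
Levels of 4 carriers of iron and haem metabolism (left of the dotted line) and 4 red cell genes (right) in each of the 6 animals, as log2 level minus the gene's mean over the animals. The carriers stay within 1 of their mean, while HBA spans from 5.17 to 9.38 in level among the wild type animals, with wild type replicate 2 (blue triangles) far above the other wild type animals.

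Among the uncoupling-protein-like carriers, SLC25A30 was at -0.74, -0.94 and -0.88 in the fat-1 animals and at -0.27, -0.51 and -0.18 in the wild type animals. The groups did not overlap. The difference was -0.53 ± 0.20, or 1.45-fold higher in wild type, with an unadjusted p of 0.030 and an adjusted p of 0.363 in limma. Its other probe, which crosses a junction (chr12:14539951-14540678, plus strand), gave -0.24 ± 0.27 with overlapping groups. The start of the brightest probe (chr12:14546632-14546691) and the junction probe are as follows.
SLC25A30 brightest, start: gtgtctttacatcatgatgtcgtatagcca
SLC25A30 second: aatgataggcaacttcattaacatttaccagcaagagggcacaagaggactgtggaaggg
SLC25A14, the brain-type relative, gave 0.06 ± 0.20, and SLC25A27 was well above background in 1 fat-1 animal and was not tested. The uncoupling proteins proper, named UCP in the files, gave -0.15 ± 0.29 for UCP2 and -0.23 ± 0.31 for UCP3, with no unadjusted p under 0.05.

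Of the carriers without a settled substrate, SLC25A46, which sits in the outer membrane and acts in mitochondrial fission and fusion, was at -2.33, -3.06 and -4.26 in the fat-1 animals and at -4.11, -4.82 and -3.75 in the wild type animals. It was dim, well above background in 3 fat-1 and 2 wild type animals. The fat-1 group alone would have kept it, so its p is not given. The groups overlapped, with fat-1 replicate 3 below 2 of the wild type animals. The difference was 1.01 ± 0.48, and it was 0.10 after another background correction (normexp). Leaving out fat-1 replicate 1 gave 0.57, and with replicate 3 of the group left out it was 1.54. SLC25A45 gave -0.47 ± 0.27 and SLC25A34 gave 0.11 ± 0.43, with -0.19 for its other probe. SLC25A35 and SLC25A48 were well above background on none of the 6 arrays. In all, 9 of the 40 genes were not tested: SLC25A27 and SLC25A42, with 1 animal each above background, and SLC25A2, SLC25A21, SLC25A31, SLC25A32, SLC25A35, SLC25A41 and SLC25A48.

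Of the 18 genes with 2 or more probes tested, all probes lay on one side of 0 in 13, and 28 of the 33 other probes lay on the side of the brightest. Among the 5 exceptions were SLC25A15, SLC25A34, SLC25A37 and SLC25A38. The median range of the difference between probes of a gene was 0.25. The other 13 genes rest on 1 probe.

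**Figure D4:**
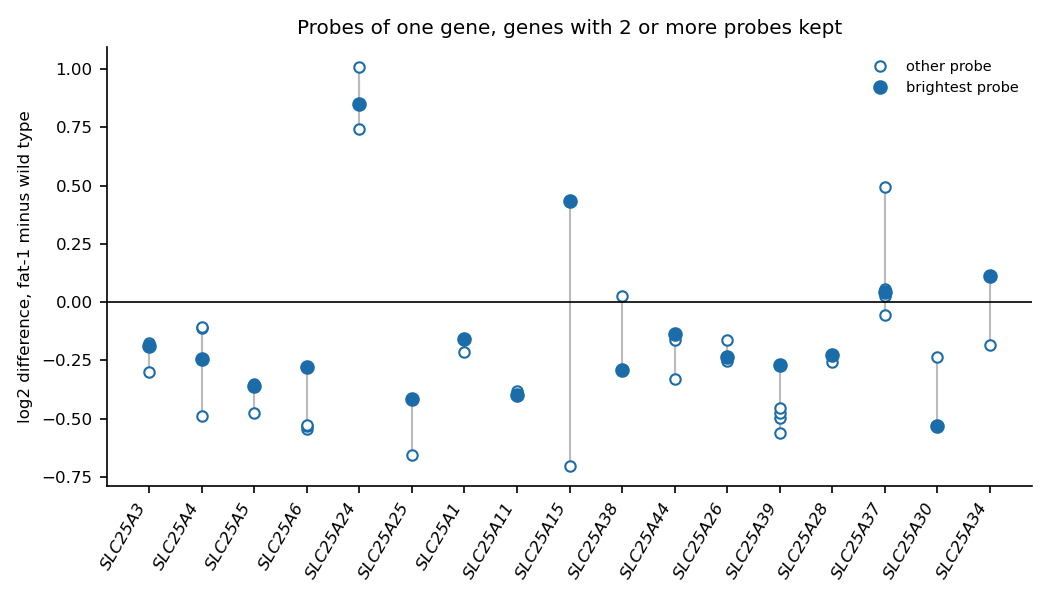
Difference, fat-1 minus wild type, of every probe tested of 17 of the 18 genes with 2 or more, on the log2 scale; filled points are the brightest probe of a gene and open points the others. The 3 tested probes of SLC25A24 lie between 0.74 and 1.01, the 5 of SLC25A39 between -0.56 and -0.27, and those of SLC25A15 on opposite sides of 0.

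The members' levels also differed between animals of 1 group. Wild type replicate 2 was the highest of the 6 in 17 of the 31 genes, and in 37.9% of all probes. The median deviation of the 31 genes from their mean over animals was 0.25 in this animal, 0.08 and -0.06 in wild type replicates 1 and 3, and 0.03, -0.12 and -0.14 in fat-1 replicates 1 to 3. Over all probes the median deviation of wild type replicate 2 was 0.13. Without this animal the median difference of the 31 genes was -0.09, beside -0.02 for all probes, and without wild type replicate 3 it was -0.29, beside -0.13. The size of the median therefore rested on which wild type animals were used.

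Genes that work beside the carriers were read from 6 lists, and none of their genes passed the adjusted threshold. Of 35 other genes of mitochondrial membrane transport (porins, pyruvate carriers, sideroflexins and protein import), 28 had a difference below 0, with a median of -0.24. Of all probes, 55.4% had a difference below 0. Of the 35, 4 had an unadjusted p under 0.05, beside 12.8% of all probes. These 4 were lower in fat-1 blood, as 6.68% of all probes were, among them the import factors TOMM34 at -0.71 ± 0.20 and TIMM29 at -0.72 ± 0.25. All fat-1 animals lay below the wild type animals in 13 of the 35 (12.7% of all probes) and above them in 1 (6.92% of all probes). The 12 measured regulators of mitochondrial biogenesis had a median of 0.17, with TFAM, which packs mitochondrial DNA, at 0.47 ± 0.25 and GABPB1, a subunit of a factor that acts on respiratory genes, at 0.45 ± 0.30. Carrier family genes under other names, 5 measured with SLC25A51 and the UCP genes among them, had a median of -0.15.

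**Figure D5:**
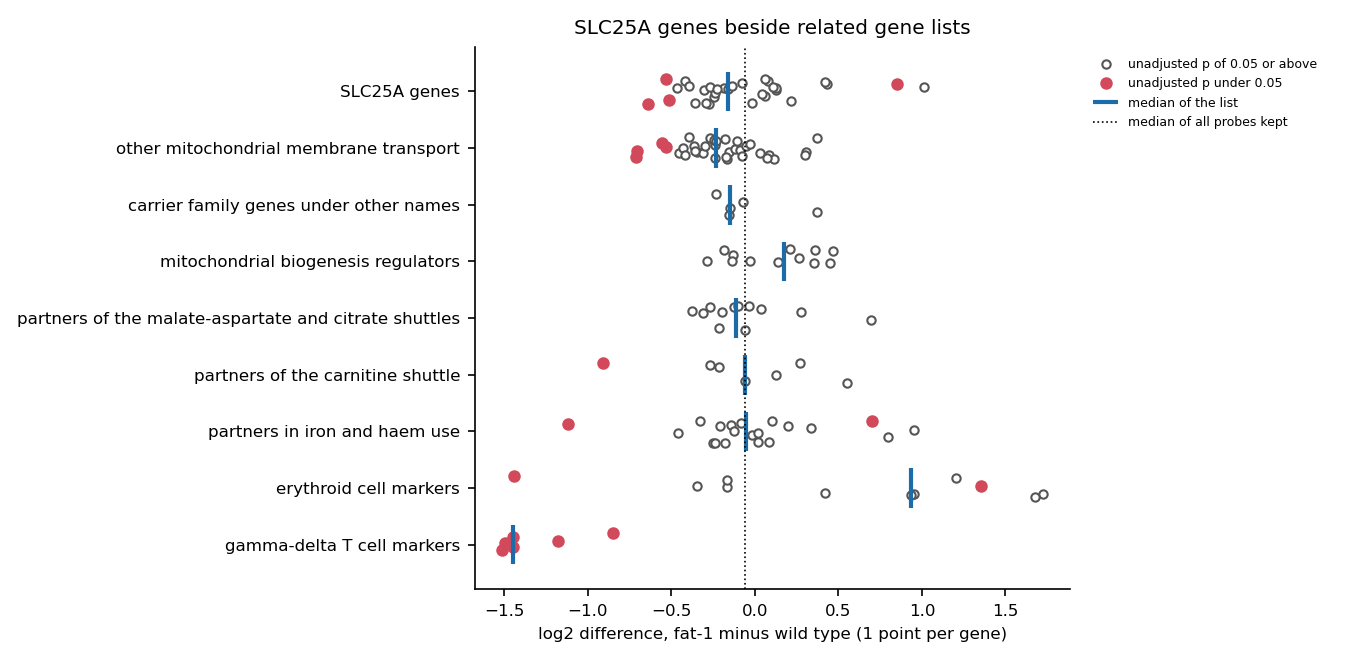
Difference, fat-1 minus wild type, of each measured gene in the SLC25 family and in related lists, on the log2 scale; filled points have an unadjusted p under 0.05, thick bars are list medians and the dotted line is the median of all probes. The SLC25A genes centre at -0.16, other mitochondrial transport at -0.24, biogenesis regulators at 0.17, erythroid markers at 0.94 and gamma-delta T cell markers at -1.45.

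Marker genes of the other blood cell types were read in the same fit, and none passed the adjusted threshold. All 6 gamma-delta T cell markers measured were lower in fat-1 animals at an unadjusted limma p under 0.05, as 6.68% of all probes were. All 6 also had every fat-1 animal below the wild type animals, as 12.7% of all probes did. Their median was -1.45. Their summed level was 19.0 to 52.9 in fat-1 and 60.4 to 99.1 in wild type animals, so the groups did not overlap. The sum is taken off the log scale, so the brightest markers carry most of it and the dim ones add little. Among the brightest is a gene that is also in the B cell list. SOX13 and WC1.3 gave -1.50 ± 0.32 and -1.52 ± 0.41. SOX13 and another of the 6 were dim, each well above background on 5 of the 6 arrays. The list shares a gene with the B cell list, so the 2 lists are not independent. The 7 natural killer and cytotoxic markers had a median of -0.29, with 4 below 0 and 3 above. Those of smallest p were KLRB1 at -1.35 ± 0.24 (adjusted limma p of 0.095) and NCR1 at -0.81 ± 0.31. The differences above 0 were those of the granule genes GZMB, at 2.08 ± 0.94, NKG7, at 0.53 ± 0.31, and PRF1, at 0.15 ± 0.36, and their groups overlapped. Another granule gene, GNLY, was below 0, at -0.29 ± 0.26, also with overlapping groups, so granule genes lay on both sides of 0. The 11 T cell markers had a median of -0.15 and the 6 B cell markers -0.29, while the 10 monocyte markers had 0.51, the 8 platelet markers 0.48 and the 7 neutrophil markers 0.05. The part of these cell types in the differences of SLC25A20, SLC25A22, SLC25A24 and SLC25A30 was not tested.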

How the data were processed

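Blood RNA of 6 cows was hybridised to 1 array each, labelled with Cy3, per the labels' protocols. The scanner files hold spot intensity from Agilent Feature Extraction (10.7.1.1 in the submitters' processing notes), background-subtracted and not scaled between arrays, per the file headers. The deposited file of wild type replicate 2 keeps 3 significant digits, against 7 in the others. The authors' deposited value table holds log2 intensity and follows the scanner values of the same array at a correlation of at least 0.999. It has the same median, 6.38, on every array, and served as an alternative, since the sources used here do not name the tool that made it.

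Processed intensity was taken to log2, spots of a probe were averaged, and each array's 75th percentile was subtracted. The 32 probes with an outlier flag were left out, no probe was saturated, and a probe was kept when 3 arrays or more had it well above background. Differences were fitted with limma 3.58.1 (lmFit, eBayes; R 4.3.3) on the group alone, and p-values were adjusted by Benjamini-Hochberg over the 26823 probes kept. The fit was tested on simulated data. Positions are those of the files on Btau_3.1, and names came through RefSeq genes of ARS-UCD2.0 where the files' accession or symbol matched. Exons and untranslated regions were not assigned, so probes that may lie in the latter are shown by their first 30 bases.

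The members, the carrier groups, the 6 pathway lists and the 8 marker lists were chosen with earlier results of these data known. Members with an unadjusted p under 0.05, and the member of smallest p in each carrier group, are given animal by animal. SLC25A5 and SLC25A37 are given so too, chosen after their values were seen, as are HBA and SLC25A51's 3 probes. GZMB, NKG7, PRF1 and GNLY were also named after their values were seen. Every other member is named with its difference, and of other lists up to 2 genes of smallest p, except that 1 member and 1 list gene are counted but not reported here by name. Animals of the same replicate number are not said to be related, so numbers were not taken as pairs. The correlation of their deviations was 0.12, 0.19 and 0.01, against -0.21 to 0.08 for animals of unlike number. Deviations within a group of 3 sum to 0, so these values cannot settle whether the numbers pair animals. Alternatives were quantile scaling, normexp background correction, the authors' table, the filter on dim probes, an intensity trend, array weights, a replicate block, the mean of a gene's probes and leaving out each animal. The number of arrays limits the precision.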

Additional observations from a re-analysis of the deposited data

How the results depend on the processing

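Slide, scan and genotype coincide, and 3 animals a group leave 8 of the 31 differences with a 95% interval that reaches past a 2-fold change. Against 46 probes past the adjusted threshold, quantile scaling gave 16, the authors' values 16, normexp 117, no filter on dim probes 14, an intensity trend 125, and leaving out each animal in turn 8 to 55. Animals of the same replicate number were not paired, and with the replicate block 105 probes passed and no SLC25A gene, with 3 members (9.68%) at an unadjusted p under 0.05, beside 14.6% of all probes. Limma's default array weights, which stopped before convergence, passed 8086 probes and 7 SLC25A genes, with 12 (38.7%) at an unadjusted p under 0.05, beside 45.6% of all probes. Gene-by-gene weights, added after seeing these values, passed 1054 probes and 0 SLC25A genes, with 10 (32.3%) at an unadjusted p under 0.05, beside 30.5% of all probes. Wild type replicate 1 had the highest weight in both. No other alternative passed an SLC25A gene. Leaving out each animal gave 0 to 5 members at an unadjusted p under 0.05 (7.56 to 23.3% of all probes), 7 to 16 whose groups did not overlap (24.4 to 47.6% of all probes), and a median difference of -0.29 to -0.089. SLC25A28 ran from -0.42 without wild type replicate 3 to 0.010 without wild type replicate 2, and no other member given animal by animal under the naming rule changed sign. Quantile scaling brought the median difference to -0.04, with that of all probes at -0.02. Normexp brought it to -0.21, with all probes at -0.15 and 77.4% of members below 0, against 68.1% of all probes. The causes were not tested.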
